A study of Mus musculus with 16 samples.

Results

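The genes described here are 9 transcription factors of the myeloid lineage, Spi1, Cebpa, Cebpb, Cebpd, Maf, Runx1, Runx3, Foxp1 and Mitf, out of 34836 gene names on the array. They were chosen by name, and every non-control probe carrying one of those names in the scanner files was taken, which gave 17 probes, each followed on its own. RAW264.7 cells, a macrophage-like line derived from a mouse tumour, were kept in low serum and then exposed for 60 min to the vehicle DMSO or to cordycepin at 20 µM, an adenosine analogue that lacks the 3′ hydroxyl group and inhibits polyadenylation. LPS, the bacterial lipopolysaccharide that activates macrophages through Tlr4, was added at 1 µg/ml for a further 60 min, while cultures without LPS stayed in DMSO or cordycepin for the same 120 min in all. The 4 conditions, named DMSO, cordycepin, LPS+DMSO and LPS+cordycepin, had 4 biological replicates each, and each replicate number was a culture day with its 4 cultures in wells of one plate, so that 16 one-colour arrays were measured. All arrays come from 1 cell line.

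Spi1 encodes PU.1, the ETS-family factor without which macrophages and B cells do not form, and the C/EBP factors encoded by Cebpa, Cebpb and Cebpd act with it at myeloid enhancers. Cebpa is best known for driving the step to granulocyte and monocyte precursors, whereas Cebpb and Cebpd are also inflammatory response genes that take part in the induction of cytokines. Runx1 and Runx3 belong to the RUNX family, which binds DNA with the partner CBFB, while Foxp1 is a forkhead repressor, Maf a basic leucine zipper factor of mature macrophages, and Mitf a factor that works with PU.1 in osteoclasts.

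The probes were 60 bases long, and 3 are shown, chosen because they bridge an exon junction or, for Foxp1, end on a stop codon. None of these gave a call below, whereas another Foxp1 probe did. In capitals is the stop-codon triplet TGA that ends the second Foxp1 probe. The first Foxp1 probe and the Spi1 probe each bridge an exon junction, since they span 4338 and 13788 bases of the mm9 build.
Foxp1 probe A_52_P276792, chr6:98885382-98889719, minus strand: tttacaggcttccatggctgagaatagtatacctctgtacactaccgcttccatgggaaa
Foxp1 probe A_55_P2088825, chr6:98880084-98880143, minus strand: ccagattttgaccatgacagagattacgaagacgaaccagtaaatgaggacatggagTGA
Spi1 probe A_52_P498086, chr2:90939665-90953452, plus strand: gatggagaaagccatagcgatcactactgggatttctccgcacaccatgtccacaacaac

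Promoter letters were held in the RefSeq table for 6 of the 9 genes, on GRCm38.p6, and the 250 bases upstream of the start are shown for Cebpb and for the distal and proximal starts of Runx1, since both genes rose in one comparison and fell in another below. Capitals mark a match to the PU.1 core GAGGAA on either strand. The other motifs searched were the NF-kB site by name, TGACGTCA (cyclic AMP response element), TGANTCA (AP-1), TTNNGNAA (C/EBP), TTCNNNGAA (STAT) and TATAAA, and no motif overlapped another in these windows.
Cebpb, chr2:167688665-167688914, plus strand: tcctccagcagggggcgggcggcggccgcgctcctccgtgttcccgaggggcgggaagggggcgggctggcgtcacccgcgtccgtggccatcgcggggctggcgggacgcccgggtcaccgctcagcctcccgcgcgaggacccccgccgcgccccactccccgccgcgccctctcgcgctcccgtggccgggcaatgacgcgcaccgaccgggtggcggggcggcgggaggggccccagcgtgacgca
Runx1 distal start, chr16:92826075-92826324, minus strand: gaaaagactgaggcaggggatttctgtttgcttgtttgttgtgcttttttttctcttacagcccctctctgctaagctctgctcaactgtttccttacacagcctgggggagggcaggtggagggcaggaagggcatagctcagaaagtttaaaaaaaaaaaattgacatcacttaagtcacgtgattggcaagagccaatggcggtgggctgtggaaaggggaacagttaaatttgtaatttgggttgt
Runx1 proximal start, chr16:92697330-92697579, minus strand: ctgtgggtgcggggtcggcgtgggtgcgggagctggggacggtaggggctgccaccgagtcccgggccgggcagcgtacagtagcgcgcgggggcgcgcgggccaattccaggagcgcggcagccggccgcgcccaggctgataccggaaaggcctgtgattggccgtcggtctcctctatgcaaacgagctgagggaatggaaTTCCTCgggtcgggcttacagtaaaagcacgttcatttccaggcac

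The proximal Runx1 window held the PU.1 core 41 to 46 bases before the start, a motif present in 23.3% of the 32851 RefSeq promoters searched. None of the motifs was found in the windows of Cebpb, the distal Runx1 start or either Runx3 start. Among the other members, Cebpa had TATAAA 25 to 30 bases before its start (12.4% of all promoters), 1 of the 3 Foxp1 windows and 1 of the 3 Mitf windows had the C/EBP letters (36.8%), and another Mitf window had an NF-kB site (3.9%). The third Mitf window had both TGACGTCA (1.55%) and TATAAA. These matches describe letters within 250 bases and say nothing of binding. The G+C share was 81.6% for Cebpb, 45.6% for the distal Runx1 start and 67.6% for the proximal one.

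Signals are given as log2 intensity after each array was set to its 75th percentile, and a probe's level is compared only with its own level on other arrays. Of the 17 probes, 14 exceeded background clearly in every replicate of 1 condition or more and were tested among 21597 probes, with at least 1 probe for each of the 9 genes. The 3 left out were 1 of Maf and 2 of Foxp1. Between 37.1% and 51.2% of the spots on an array were well above background, with the higher shares on the slide that held replicates 3 and 4. Macrophage identity was checked on 11 markers, all well above background on all 16 arrays, including Csf1r, Cd68 and Adgre1, whereas none of the 3 mast cell, 4 erythroid, 4 fibroblast and 4 epithelial markers was. Of 5 T cell markers, 2 were well above background on all 16 arrays, and the list summed to 2590 to 3160 in LPS+DMSO, 3810 to 5180 in LPS+cordycepin and 2920 to 6110 on the arrays without LPS, with Lck higher in LPS+cordycepin than in LPS+DMSO by 0.63 on the log2 scale (adjusted p = 0.0415 by limma). Of the B cell markers, Ms4a1, Pax5 and Ebf1 were too dim to be tested, but Cd79a was at 8.19 to 9.99 on the log2 scale in LPS+cordycepin against 5.74 to 6.67 on the other arrays, and Cd79b was at 6.25 to 7.19 against 3.58 to 5.95. The 6 granulocyte markers summed to 1370 to 2440 in LPS+cordycepin and 740 to 1590 elsewhere. Of the 3 tested, Mpo, the myeloperoxidase gene of granulocyte precursors, differed by 3.97 between LPS+cordycepin and LPS+DMSO (adjusted p = 2.4e-09) and by 2.02 between cordycepin and DMSO (adjusted p = 2.4e-06), whereas Elane and S100a8 gave -0.54 and -0.05 in the first of these and were not called in either. Mpo was well above background on 13 of the 16 arrays, with means of 5.02 in DMSO and 5.79 in LPS+DMSO. Its differences were therefore partly set against signals near background. The part of these T cell, B cell and granulocyte genes in the results with cordycepin was not tested.

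One array stood apart for these genes. DMSO replicate 2 had the lowest signal of the 4 DMSO arrays at 13 of the 14 tested probes, all but Cebpb, whereas it was the lowest at 34.1% of all probes tested. Member calls against DMSO that changed when this array was left out are given with the genes below. In these bulk cultures, a lower signal through fewer cells of a kind and through less RNA per cell cannot be told apart. Labelling primed on poly(A) tails and cordycepin inhibits polyadenylation, so less RNA and RNA with less tail cannot be told apart either. Tail length was not tested.

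**Figure D1:**
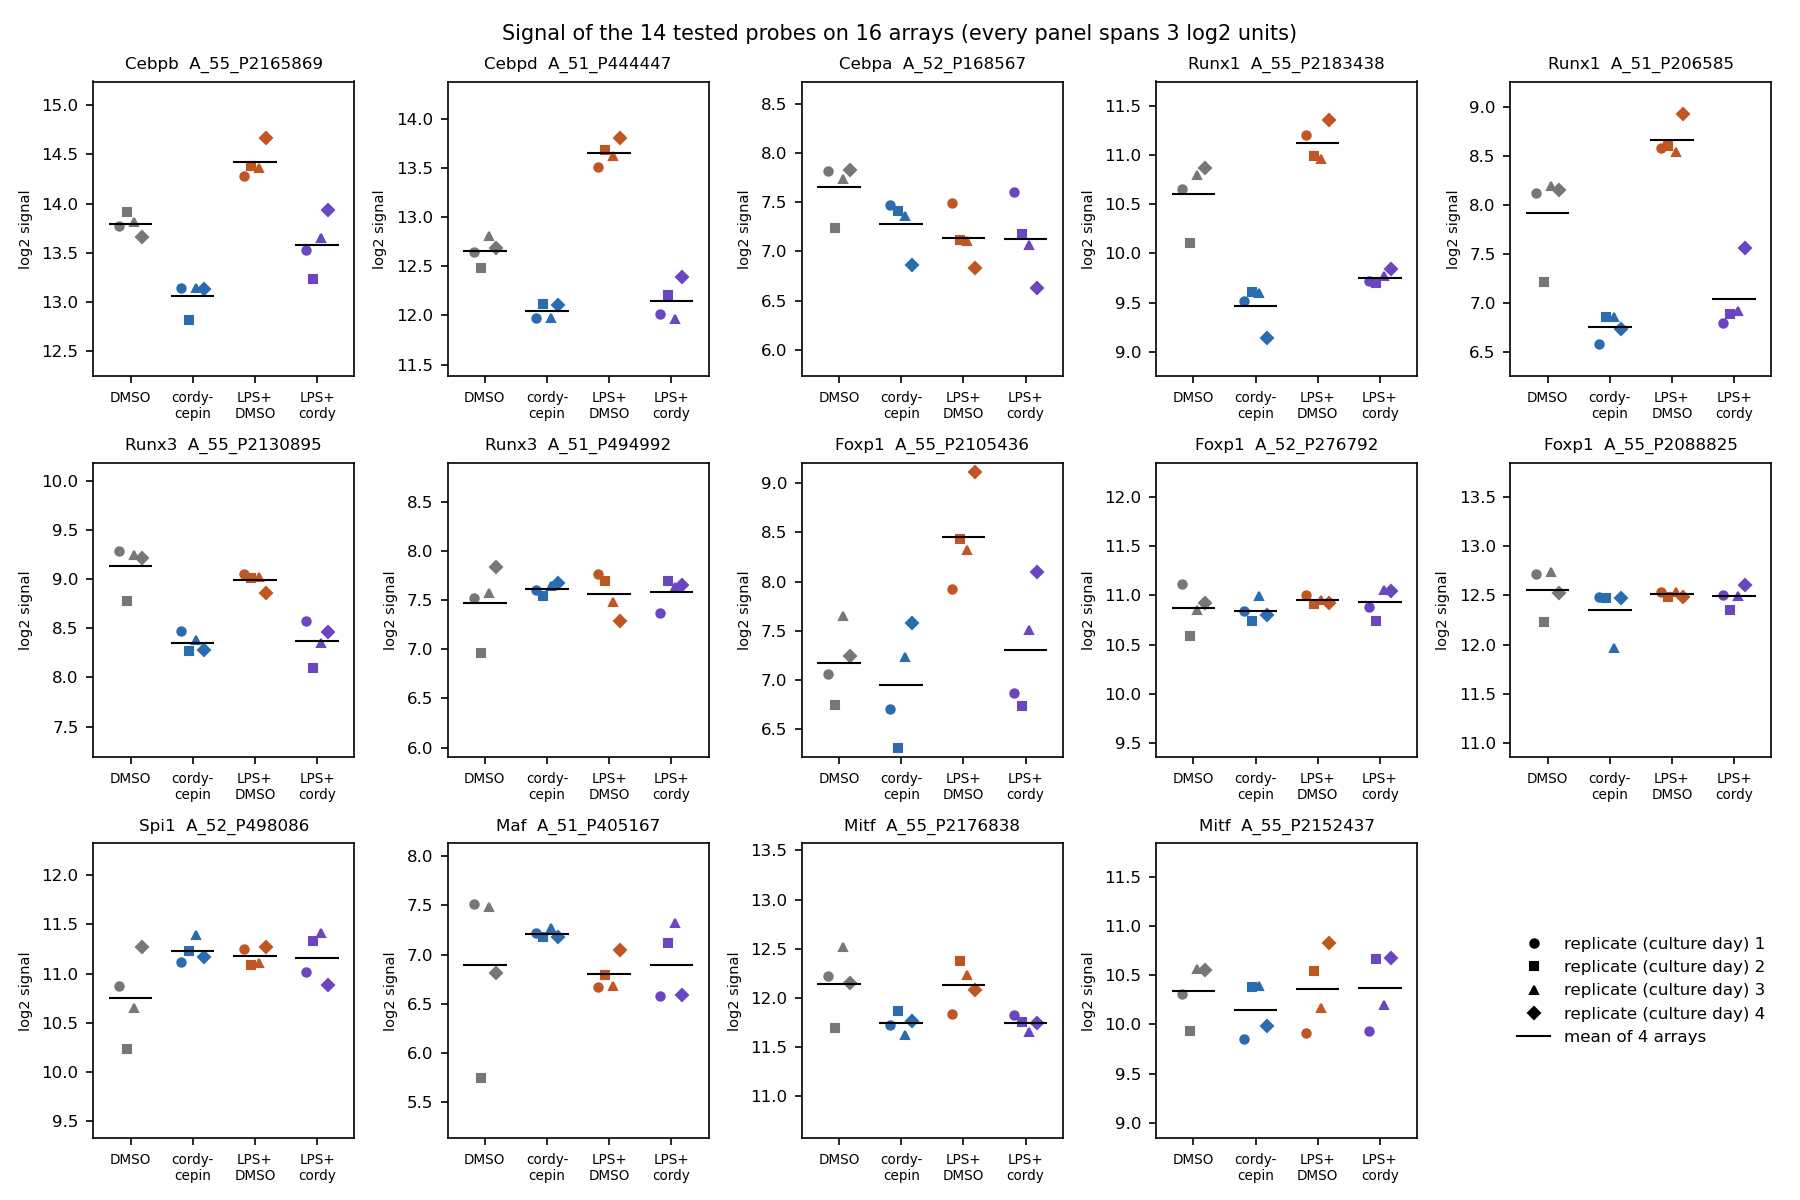
Normalised log2 signal (vertical axes, each spanning 3 log2 units) of the 14 tested probes in the 4 conditions (horizontal axes), with 1 point per array, a symbol for each culture day and a line at the mean of 4 arrays. Cebpd and both Runx1 probes were highest on the 4 LPS+DMSO arrays, and each of their groups with cordycepin lay below its own group without. DMSO replicate 2 (square) was the lowest DMSO array in every panel but that of Cebpb.

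The first comparison asked which of the factors responded to 60 min of LPS in the absence of cordycepin. Cebpb, Cebpd, both probes of Runx1 and 1 probe of Foxp1 were higher in LPS+DMSO than in DMSO, and no member probe was lower. These 5 of 14 probes were called at an adjusted p under 0.05 by limma with Benjamini-Hochberg adjustment, against 14.4% of all probes called in either direction, 5.03% higher and 9.39% lower. At 2-fold or more, 1 of the 14 was called, against 4.86% of all probes. The groups did not overlap at any of the 5, as at 18.6% of all probes, which by itself fixes the same direction on all 4 days. The median change of the 14 probes was 0.08 on the log2 scale and that of all probes was -0.04. The other 5 genes, Spi1, Cebpa, Maf, Runx3 and Mitf, had no called probe.

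The second comparison asked what cordycepin did to the factors in LPS-treated cells. Cebpb, Cebpd, both Runx1 probes, 1 Runx3 probe and the same Foxp1 probe that rose with LPS fell in LPS+cordycepin relative to LPS+DMSO, and no member probe was higher. The 6 called probes compare with 20.2% of all probes called in either direction, 8.18% lower and 12% higher. Of the 14, 4 fell by at least 2-fold, against 8.72% of all probes called with a change of that size in either direction. Their median over all 14 probes was -0.20, and that of all probes was 0.03. Groups were separate at 6 of 14 probes, 5 of them called, while 23.5% of all probes had groups that did not overlap.

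Without LPS, the comparison of cordycepin with DMSO gave 5 lower probes and none higher, namely Cebpb, Cebpd, both of Runx1 and 1 of Runx3. Over all probes 16.8% were called in either direction, 7.05% lower and 9.71% higher, and 22.2% had groups that did not overlap, as did all 5 of these. At 2-fold or more, the 2 Runx1 probes were called, against 6.64% of all probes. The median change was -0.30 over the 14 probes and 0.04 over all probes. In the presence of cordycepin, LPS raised 1 member probe, that of Cebpb, where 7.88% of all probes were called, 3.38% higher and 4.5% lower. None of the 14 changed by 2-fold there, against 2.99% of all probes. The comparisons with LPS+DMSO or DMSO in common share those arrays and so are not independent of each other.

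**Figure D2:**
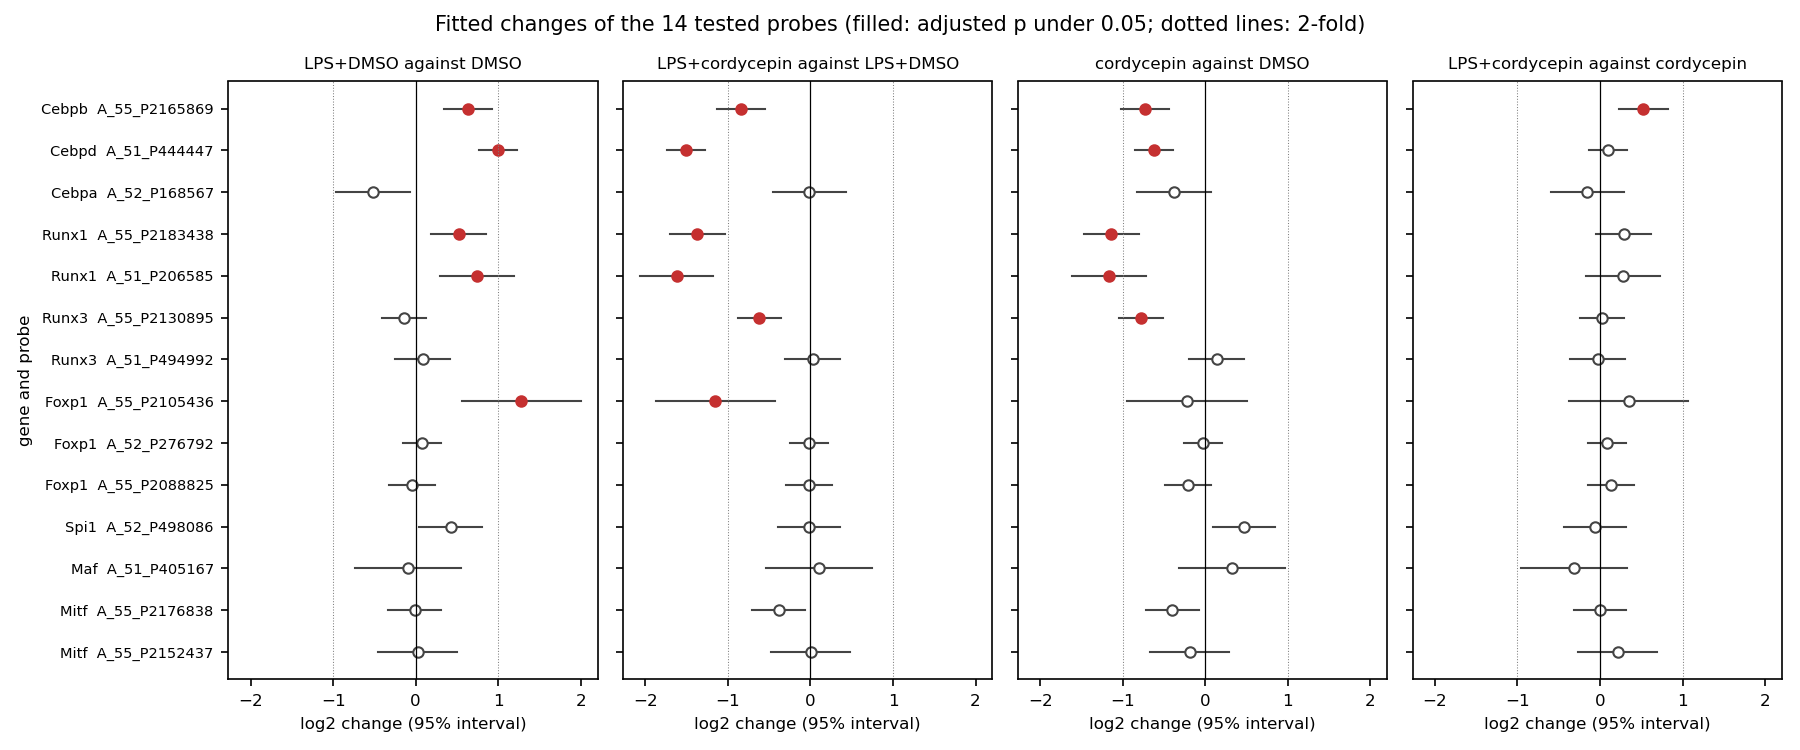
Fitted log2 change (horizontal axes) with its 95% interval for the 14 tested probes (vertical axis) in each of 4 comparisons between conditions, each of 4 against 4 arrays. Filled points passed an adjusted p under 0.05, open points did not, and dotted lines mark a 2-fold change. Filled points are on the right for 5 probes with LPS, and on the left for 6 and 5 probes with cordycepin, with and without LPS.

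Cebpd, whose product C/EBP delta amplifies the response to LPS, was called in 3 comparisons between conditions and for the interaction. Its signals (A_51_P444447, chr16:15888459-15888518, plus strand, mm9) were 12.65, 12.48, 12.81 and 12.69 in DMSO and 13.51, 13.69, 13.62 and 13.80 in LPS+DMSO. With cordycepin they were 11.97, 12.12, 11.97 and 12.11, and with LPS and cordycepin 12.01, 12.21, 11.96 and 12.40. The LPS+DMSO arrays were thus above all others, and those with cordycepin, whether or not LPS was present, overlapped each other and were below all DMSO arrays. LPS raised Cebpd by 1.00 ± 0.11 on the log2 scale (SE, n = 4 per group, a 1.995-fold change, just under the 2-fold threshold, adjusted p = 1.0e-05 by limma). In LPS-treated cells cordycepin lowered it by 2.85-fold (-1.51 ± 0.11, adjusted p = 7.0e-08 by limma). Without LPS the decrease was 1.53-fold (-0.62 ± 0.11, adjusted p = 6.7e-04 by limma). In cordycepin the LPS response was 0.10, with a 95% interval of -0.13 to 0.33 (adjusted p = 0.743 by limma).

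The LPS response of Cebpd in cordycepin was smaller than that in DMSO by 0.90 ± 0.15 on the log2 scale, written as -0.90 (95% interval -1.22 to -0.57, adjusted p = 0.0134 by limma for the interaction). It was the 1 member probe called for this difference, where 0.519% of all probes were called, 0.245% with a smaller or more negative response in cordycepin and 0.273% the other way. At 2-fold or more no member was called, against 0.343% of all probes. The difference had the same sign on all 4 days, and it was -0.97 on the slide of replicates 1 and 2 and -0.82 on that of replicates 3 and 4. It remained called without any 1 array, but not without a whole culture day, when it lay between -0.92 and -0.82 with adjusted p between 0.0895 and 0.168.

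Cebpb encodes the C/EBP factor that induces many cytokine and acute-phase genes. Its signals (A_55_P2165869, chr2:167515828-167515887, plus strand, mm9) were 13.77, 13.91, 13.81 and 13.66 in DMSO, and 14.28, 14.39, 14.36 and 14.67 in LPS+DMSO. They were 13.14, 12.82, 13.14 and 13.13 in cordycepin, and 13.53, 13.23, 13.65 and 13.93 in LPS+cordycepin. Cordycepin arrays were the lowest and LPS+DMSO arrays the highest, while LPS+cordycepin arrays spanned the range of the DMSO arrays. LPS raised Cebpb 1.55-fold (0.64 ± 0.14, adjusted p = 0.00463 by limma), with an adjusted p of 0.0504 when the arrays of culture day 3 were left out. Cordycepin lowered it 1.79-fold with LPS (-0.84 ± 0.14, adjusted p = 2.6e-04 by limma) and 1.66-fold without (-0.73 ± 0.14, adjusted p = 0.0012 by limma).

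Unlike Cebpd, Cebpb also passed the threshold for LPS in cordycepin, with a 1.44-fold rise (0.53 ± 0.14, adjusted p = 0.0269 by limma). That call was lost without cordycepin replicate 2 (0.44, adjusted p = 0.0971), cordycepin replicate 4 (0.55, 0.0503), LPS+cordycepin replicate 3 (0.50, 0.0724) or LPS+cordycepin replicate 4 (0.41, 0.0811), and without culture day 1 (adjusted p = 0.111), 3 (0.190) or 4 (0.106). The LPS responses of Cebpb with and without cordycepin differed by -0.11, with a 95% interval of -0.52 to 0.30, which was not a call (adjusted p = 0.965). Whether Cebpb and Cebpd differed from each other in this respect was not tested.

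**Figure D3:**
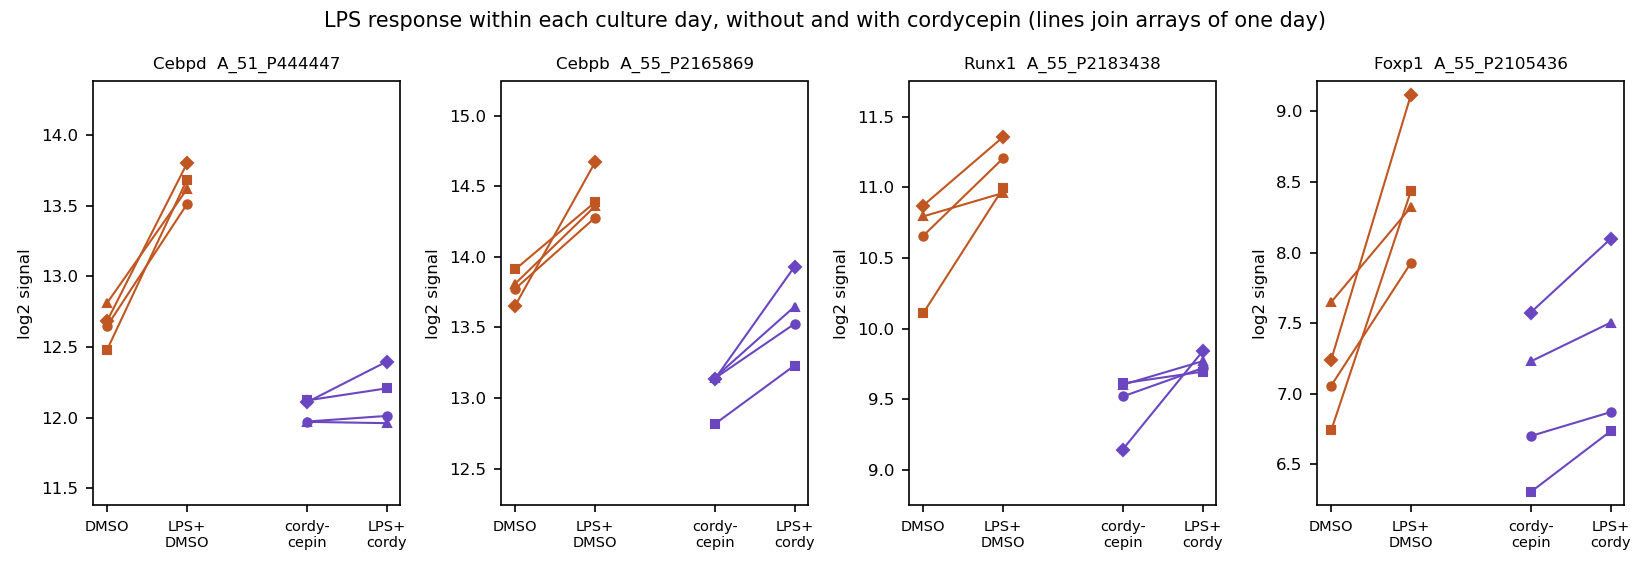
Normalised log2 signal (vertical axes, 3 log2 units each) of Cebpd, Cebpb, 1 Runx1 probe and the responding Foxp1 probe, with lines joining the array without LPS to the array with LPS of the same culture day, in DMSO (left of each panel) and in cordycepin (right). The lines of Cebpd are steep in DMSO (mean 1.00) and nearly flat in cordycepin (mean 0.10), while those of Cebpb rise in both (0.64 and 0.53).

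Cebpa, the member of the C/EBP family that drives early myeloid commitment, had no call in any of the 5 comparisons made without a block. Signals (A_52_P168567, chr7:35906517-35906576, plus strand, mm9) were 7.82, 7.23, 7.74 and 7.83 in DMSO and 7.50, 7.11, 7.10 and 6.83 in LPS+DMSO. In cordycepin they were 7.47, 7.41, 7.36 and 6.86, and in LPS+cordycepin 7.61, 7.18, 7.07 and 6.63. The other 3 DMSO arrays lay above all arrays of the other conditions, and DMSO replicate 2 lay among them. The change with LPS was -0.52 ± 0.21 (adjusted p = 0.122 by limma), negative on all 4 days. With the culture day as a block, which pairs the arrays of one plate, the same change had an adjusted p of 0.0442, and without DMSO replicate 2 it was -0.66 with an adjusted p of 0.0499. Cordycepin gave -0.38 without LPS and -0.01 with it, and neither was called.

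Runx1 encodes a core factor of blood cell formation that also opens myeloid enhancers, and both of its probes fell by more than 2-fold with cordycepin. The probe A_55_P2183438 (chr16:92605785-92605844, minus strand, mm9) gave 10.66, 10.11, 10.79 and 10.87 in DMSO and 11.21, 10.99, 10.96 and 11.36 in LPS+DMSO. It gave 9.52, 9.61, 9.60 and 9.14 in cordycepin and 9.72, 9.69, 9.77 and 9.84 in LPS+cordycepin. All 8 arrays with cordycepin were below all 8 without. Its decrease was 2.59-fold in LPS-treated cells (-1.37 ± 0.16, adjusted p = 7.8e-06 by limma) and 2.20-fold without LPS (-1.14 ± 0.16, adjusted p = 7.0e-05 by limma).

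The second Runx1 probe, A_51_P206585 (chr16:92604413-92604472, minus strand, mm9), lies 1372 bases further downstream and behaved alike. Its DMSO signals were 8.12, 7.21, 8.19 and 8.16, and its LPS+DMSO signals 8.58, 8.60, 8.54 and 8.93. In cordycepin it gave 6.58, 6.86, 6.86 and 6.73, and in LPS+cordycepin 6.80, 6.89, 6.92 and 7.57. DMSO replicate 2 and LPS+cordycepin replicate 4 stood apart from their groups, and each group with cordycepin was still below its own group without. The decrease was 3.08-fold with LPS (-1.62 ± 0.21, adjusted p = 2.7e-05 by limma) and 2.24-fold without (-1.16 ± 0.21, adjusted p = 8.3e-04 by limma). The decreases at the second probe and the first differed by -0.25 with LPS (95% interval -0.56 to 0.06) and by -0.02 without (-0.33 to 0.29), and neither difference was called.

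The rise of Runx1 with LPS was smaller and less certain than its decrease with cordycepin. It was 0.52 ± 0.16 at A_55_P2183438 (adjusted p = 0.0357 by limma) and 0.74 ± 0.21 at A_51_P206585 (adjusted p = 0.0257 by limma). At A_55_P2183438 the call was lost without DMSO replicate 1 (adjusted p = 0.0558), DMSO replicate 2 (0.0774), LPS+DMSO replicate 1 (0.0897) or LPS+DMSO replicate 4 (0.106), the change then lying between 0.35 and 0.54. At A_51_P206585 it was lost without LPS+DMSO replicate 4 (0.65, adjusted p = 0.0787). Without any 1 culture day neither was called, with changes of 0.40 to 0.64 at A_55_P2183438 (adjusted p = 0.0619 to 0.177) and 0.53 to 0.87 at A_51_P206585 (adjusted p = 0.0609 to 0.0953). In cordycepin the LPS response was 0.29 and 0.28 at these probes, not called at either, and the interaction was -0.23 (-0.71 to 0.24) and -0.46 (-1.09 to 0.17).

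Runx3, the family member best known from lymphocytes and dendritic cells, gave different answers at its probes. The downstream probe A_55_P2130895 (chr4:134733846-134733905, plus strand, mm9) had signals of 9.28, 8.78, 9.25 and 9.21 in DMSO and 8.47, 8.27, 8.38 and 8.28 in cordycepin. In LPS+DMSO it had 9.05, 9.02, 9.03 and 8.86, and in LPS+cordycepin 8.58, 8.09, 8.35 and 8.47. Every array with cordycepin was below every array without. The decrease was 1.72-fold without LPS (-0.78 ± 0.12, adjusted p = 2.8e-04 by limma) and 1.53-fold with LPS (-0.62 ± 0.12, adjusted p = 0.00168 by limma), while LPS itself gave -0.14 (adjusted p = 0.563).

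At A_51_P494992 (chr4:134731959-134732018, plus strand, mm9), which lies 1887 bases upstream of it, Runx3 signals were 6.96 to 7.84 in DMSO, 7.54 to 7.68 in cordycepin, 7.29 to 7.76 in LPS+DMSO and 7.37 to 7.69 in LPS+cordycepin. All 4 groups overlapped there, and the changes with cordycepin were 0.14 without LPS (-0.19 to 0.47) and 0.03 with LPS (-0.30 to 0.36). The change at this probe exceeded that at A_55_P2130895 by 0.92 ± 0.15 without LPS (adjusted p = 3.1e-04 by limma) and by 0.65 ± 0.15 with LPS (adjusted p = 0.00466 by limma).

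Foxp1, a forkhead repressor whose decrease accompanies monocyte differentiation, was measured by 3 tested probes. The Foxp1 probes printed above gave no call, with condition means between 10.85 and 10.95 at A_52_P276792 and between 12.35 and 12.55 at A_55_P2088825. The change between conditions that was largest in size, with cordycepin at A_55_P2088825, was -0.20, and with LPS the intervals were -0.15 to 0.31 and -0.32 to 0.24.

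The probe A_55_P2105436 (chr6:98956679-98956738, minus strand, mm9), designed on a cDNA clone and placed 76595 bases upstream of A_55_P2088825, behaved otherwise. It gave 7.06, 6.74, 7.65 and 7.24 in DMSO and 7.93, 8.44, 8.32 and 9.12 in LPS+DMSO. It gave 6.70, 6.30, 7.23 and 7.58 in cordycepin and 6.87, 6.73, 7.50 and 8.10 in LPS+cordycepin. LPS+DMSO arrays were above all DMSO arrays, but the highest LPS+cordycepin array exceeded the lowest LPS+DMSO array. LPS raised this signal 2.43-fold (1.28 ± 0.34, adjusted p = 0.0177 by limma), and cordycepin lowered it 2.22-fold in LPS-treated cells (-1.15 ± 0.34, adjusted p = 0.0237 by limma).

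Both calls at that Foxp1 probe depended on single arrays. The rise was not called without DMSO replicate 2 (1.14, adjusted p = 0.0520) or LPS+DMSO replicate 4 (1.06, 0.0614). The decrease was not called without LPS+DMSO replicate 4 (-0.93, adjusted p = 0.0811), LPS+cordycepin replicate 1 (-1.01, 0.0728) or LPS+cordycepin replicate 2 (-0.96, 0.0751). The rise was also lost without culture day 2 (adjusted p = 0.0675) or 3 (0.0569), and the decrease without day 1 (0.0802), 2 (0.0955) or 3 (0.0799). Its LPS response exceeded that of A_55_P2088825 by 1.32 ± 0.34 (adjusted p = 0.0148 by limma) and that of A_52_P276792 by 1.20 ± 0.31 (adjusted p = 0.0163 by limma). The files name all 3 probes Foxp1 and give no exon or UTR annotation for them.

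Spi1, the gene of PU.1, was not called in any comparison. Signals were 10.87, 10.24, 10.65 and 11.27 in DMSO, 11.11, 11.23, 11.39 and 11.17 in cordycepin, 11.25, 11.09, 11.10 and 11.27 in LPS+DMSO, and 11.02, 11.33, 11.41 and 10.89 in LPS+cordycepin. The DMSO arrays were the most spread, and 3 of them lay below all LPS+DMSO arrays. Against DMSO the changes were 0.42 ± 0.18 with LPS (adjusted p = 0.138 by limma) and 0.47 ± 0.18 with cordycepin (adjusted p = 0.0865 by limma). Without DMSO replicate 4 they were 0.59 (adjusted p = 0.0212) and 0.64 (adjusted p = 0.00979), and without DMSO replicate 2 they were 0.25 (adjusted p = 0.342) and 0.30 (adjusted p = 0.227), so that single DMSO arrays moved both values either way. In LPS-treated cells cordycepin changed Spi1 by -0.02, with a 95% interval of -0.39 to 0.36.

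Mitf, a basic helix-loop-helix factor of osteoclasts and melanocytes, was tested at A_55_P2176838 and A_55_P2152437, the first 2728 bases downstream. At A_55_P2176838 (chr6:97971229-97971288, plus strand, mm9) signals were 12.22, 11.69, 12.51 and 12.15 in DMSO and 11.72, 11.87, 11.63 and 11.76 in cordycepin. They were 11.84, 12.38, 12.23 and 12.08 in LPS+DMSO and 11.82, 11.76, 11.66 and 11.75 in LPS+cordycepin. The lowest LPS+DMSO array lay just above the highest LPS+cordycepin array, and DMSO replicate 2 lay within the cordycepin range. Cordycepin gave -0.40 ± 0.15 without LPS (adjusted p = 0.0870 by limma) and -0.39 ± 0.15 with LPS (adjusted p = 0.0889 by limma). Without DMSO replicate 2 these were -0.55 (adjusted p = 0.00578) and -0.39 (0.0242), and without LPS+DMSO replicate 1 the second was -0.48 (0.0401). At A_55_P2152437 (chr6:97968501-97968560) the corresponding changes were -0.19 and 0.00, with no call.

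Maf (A_51_P405167, chr8:118227736-118227795, minus strand, mm9) had DMSO signals of 7.52, 5.74, 7.49 and 6.82, of which 3 were well above background. The other conditions lay between 6.58 and 7.32, and no comparison gave a call. With LPS the change was -0.09, with a 95% interval of -0.74 to 0.55, and with cordycepin it was 0.32. Without DMSO replicate 2, which was not well above background, these were -0.48 (adjusted p = 0.137 by limma) and -0.06 (adjusted p = 0.886). The second Maf probe and the last Foxp1 probes were not well above background on all 4 arrays of any condition and were not tested.

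All 18 calls, over the 14 probes and 5 comparisons, kept their sign on both slides and on all 4 days. Where the groups did not overlap, as for most of these calls, that sign was already fixed and adds no evidence. Each was also called with the slide or the culture day as a block. No call changed sign under any of 38 alternatives. When each array was instead set to 6 spiked-in control probes, 3 of the 18 were called, those of Cebpd and both Runx1 probes in LPS+cordycepin against LPS+DMSO.

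Among 59 other regulators of the myeloid lineage, 43 were tested. LPS raised 8 and lowered 5 of them, with a median change of -0.01, where 5.03% of all probes were called higher and 9.39% lower. Maff, a small Maf protein without an activation domain, rose from 7.08 to 7.90 in DMSO to 12.34 to 12.48 in LPS+DMSO (4.84 ± 0.19, adjusted p = 1.2e-10 by limma). Id2 and Id3, which block DNA binding by helix-loop-helix factors, rose by 3.17 (adjusted p = 1.0e-09) and 4.87 (adjusted p = 1.2e-05), Id3 from a signal well above background on 2 of the 4 DMSO arrays. Hhex, a homeobox factor of blood and endothelium, fell by 1.67 (adjusted p = 3.8e-07).

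Cordycepin lowered 8 and raised 4 of the 43 without LPS, with a median of -0.23, and lowered 15 and raised 3 with LPS, with a median of -0.27. Over all probes, 7.05% were called lower and 9.71% higher without LPS, and 8.18% lower and 12% higher with LPS. The ETS-family repressor Etv6 fell by 1.47 without LPS (adjusted p = 1.1e-06) and by 1.38 with LPS (adjusted p = 1.5e-06), and its arrays with cordycepin were all below those without. Without LPS, Lyl1, a basic helix-loop-helix factor of blood stem cells, fell by 1.13 (adjusted p = 4.0e-07), and the zinc finger factor Zeb2 fell by 1.07 (adjusted p = 2.1e-06). Klf4, a factor of monocyte differentiation, fell by 0.95 (adjusted p = 0.0351), with DMSO replicate 2 at 9.56 and the other DMSO arrays at 7.66 to 8.07. Without that array, a setting added after the values were seen, the change of Klf4 was -0.54 (adjusted p = 0.0165 by limma).

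In LPS-treated cells Id3 fell by 1.63 (adjusted p = 0.0427) and Id2 by 0.92 (adjusted p = 2.3e-04) with cordycepin. Gfi1, a repressor of granulocyte precursors and lymphocytes, was well above background on all 4 LPS+cordycepin arrays and on no other array. It passed the filter only through the arrays where it was high, so its p-value is not used as support. Against LPS+DMSO its fold was 3.08 when a floor was set for the dim arrays, which is not a measured fold. The floor is, for each dim array, the higher of its own signal and the lowest signal among probes well above background. No regulator of this list was called for the interaction, where 0.519% of all probes were. LPS in cordycepin raised 8 and lowered 5, where 3.38% of all probes were called higher and 4.5% lower.

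Of 30 genes that these factors are known to regulate, 28 were tested. LPS raised 4 and lowered 2, cordycepin raised 1 and lowered 2 without LPS, and lowered 2 with LPS, with medians of -0.04, 0.14 and 0.05. Over all probes, 14.4%, 16.8% and 20.2% were called in either direction in these comparisons. Ptgs2, the cyclooxygenase gene with C/EBP sites in its promoter, rose by 3.17 ± 0.17 with LPS (adjusted p = 3.8e-09), and cordycepin lowered it by 1.48 with LPS (adjusted p = 8.1e-06) and by 0.61 without (adjusted p = 0.0196). Il6, a cytokine gene, was well above background on all 4 LPS+DMSO arrays (5.64 to 7.28) but on 1 of the 4 DMSO arrays (replicate 2, at 6.59). Its fitted rise of 2.74 ± 0.75 was set mostly against signals near background and is no measured fold. Il6 passed the filter only through the LPS+DMSO arrays, so its p-value is not used as support. Cd14, the LPS co-receptor, fell by 0.44 with cordycepin in LPS-treated cells (adjusted p = 0.0111), and Itgax, an integrin chain, rose by 0.42 with cordycepin alone (adjusted p = 0.0382). Without DMSO replicate 2 the changes of Itgax and Ptgs2 with cordycepin alone were 0.32 (adjusted p = 0.105) and -0.49 (adjusted p = 0.0609), and neither was called.

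As a description, the named genes whose signals most resembled Runx1 at A_55_P2183438 over the 16 arrays were Cep295 (Pearson r = 0.98), Atrip (0.98) and Ttll4 (0.97), and those most like Cebpd were Fam133b, Plekho2 and St3gal1 (0.97 each), out of 11644 genes searched. The 16 points share 4 conditions, culture days and slides.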

How the data were processed

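RNA from 16 RAW264.7 cultures was labelled and hybridised to one-colour Agilent mouse arrays, 1 culture per array. The labelling kit primes on poly(A) tails. The deposited scanner files hold the intensity of each spot, background-subtracted by Agilent Feature Extraction (10.7.3.1 per the file headers, 10.10.1.1 in the submitters' processing notes). The authors also deposited a table of log2 values for 25775 spots, ranging from 3.73 to 18.7, whose correlation with the scanner values was 0.987 to 0.998. It holds 15 of the 17 member probes and served as an alternative, and its normalisation steps are not given in the sources used here.

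From the processed signal, outlier spots (108 to 237 per array) were left out, spots of a probe were averaged, and log2 values were set to each array's 75th percentile over 18064 probes that the scanner marked as well above background throughout. No spot was saturated. The 21597 probes so marked in every replicate of 1 condition or more were fitted with limma 3.58.1 in R 4.3.3, with 4 condition means over 16 arrays and no block, and p-values were adjusted by Benjamini-Hochberg over all of them. A call is an adjusted p under 0.05. Array number limits the precision. On simulated data for LPS+DMSO against DMSO, 87.5% of 200 changed probes were recovered with 13 false calls. The changes put in were of 2-fold or more, and the noise was independent between arrays. The share therefore does not apply to smaller changes or to arrays that share a culture day or slide.

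Replicate numbers mark a shared culture day per the labels, so that they pair the arrays. Deviations from the group means of same-numbered arrays had a mean correlation of 0.21 (18 of 24 pairs over 0.1). Replicates 1 and 2 shared one slide and 3 and 4 the other, and arrays of the same slide had a mean correlation of 0.20 and of different slides -0.20.

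Members and gene lists were chosen with earlier results of these data known. The text names every member, the 4 other regulators and 2 regulated genes with the largest called change in each of 3 comparisons, and the 3 genes most like each of the 2 members with the widest range of condition means. Of the 11 macrophage markers, LPS raised 2 and lowered 1, and cordycepin lowered 1 with LPS and none without. Over all probes, 14.4%, 20.2% and 16.8% were called in either direction in these comparisons. Gene names came from RefSeq by accession for 27656 probes, by symbol for 3401 and by synonym for 321, and 24303 kept the file's name. Probe positions are on mm9 as the files give them, and promoters are on GRCm38.p6, so positions are not compared between them. Alternatives covered scaling, background correction, the dim-probe filter, blocks, probe choice, thresholds, the methods' t-test and leaving out arrays.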

Additional observations from a re-analysis of the deposited data

Results flagged for a closer look

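In 7 of the 56 sets of 4 arrays (12.5%), 1 array lay far from the other 3 by Dixon's test, where chance gives about 1 in 20, or 2.8. DMSO replicate 2 was the low array for Cebpa at 7.23, for Runx1 at A_51_P206585 at 7.21 and for Runx3 at A_55_P2130895 at 8.78 (log2 signals). At the same Runx1 probe, LPS+DMSO replicate 4 was high at 8.93 and LPS+cordycepin replicate 4 was high at 7.57. Cordycepin replicate 2 was low for Cebpb at 12.82, and cordycepin replicate 3 was low for Foxp1 at A_55_P2088825 at 11.97. The LPS response of Cebpd differed between cells with and without cordycepin by -0.90 on the log2 scale, tested as an interaction in limma.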

How the results depend on the processing

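Over the alternatives, the 18 calls gave 676 values, of which 592 remained called, 84 did not and 0 changed sign. The 52 uncalled results gave 1912 values, of which 13 were called. Scaling to 6 spiked-in probes left 0 of 5 calls for LPS+DMSO against DMSO, 3 of 6 for LPS+cordycepin against LPS+DMSO, 0 of 5 for cordycepin against DMSO, 0 of 1 for LPS+cordycepin against cordycepin and 0 of 1 for the interaction. It moved the median of all probes to -0.14, -0.09, 0.11, -0.35 and -0.19 in these comparisons, and the other scalings kept it within 0.1 of 0. The count for LPS+DMSO against DMSO was 2 without the filter on dim probes, 3 with the brightest probe per gene, 3 with only the groups compared, 2 at an adjusted p under 0.01, 1 at 2-fold or more and 2 by the methods' t-test after Benjamini-Hochberg. For cordycepin against DMSO it was 2 at 2-fold or more. For LPS+cordycepin against cordycepin it was 0 with the authors' values, without the filter, at an adjusted p under 0.01, at 2-fold or more, with only the groups compared and by the methods' t-test after Benjamini-Hochberg, and 2 by that test unadjusted. For the interaction it was 0 without the filter, at an adjusted p under 0.01 and at 2-fold or more. The LPS call of Runx1 was also lost at A_51_P206585 with normexp background correction (0.43, adjusted p = 0.0598) and at A_55_P2183438 with the authors' values (0.54, adjusted p = 0.0521), both by limma. In LPS+cordycepin against LPS+DMSO, Foxp1 at A_55_P2105436 was lost without the filter, at an adjusted p under 0.01 and by the methods' t-test after Benjamini-Hochberg. The cause was not tested. Leaving out 1 array or 1 culture day gave 1 to 6, 5 to 7, 5 to 6, 0 to 1 and 0 to 1 calls in the 5 comparisons in the order above. With the replicate block, which pairs arrays of a culture day, the counts were 6, 6, 5, 1 and 1, Cebpa with LPS being the added call. Mitf at A_55_P2176838 in LPS+cordycepin against LPS+DMSO was -0.51 (adjusted p = 0.0383 by limma) with the 75th percentile taken over all probes.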

Other observations

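Cbfb, the gene of the partner subunit of the Runx factors, read 4.99 on the log2 scale on the array of cordycepin replicate 3 and 13.79 to 14.35 on the other 15 arrays, and was named after its values were seen. Its change with cordycepin was therefore -2.15 ± 1.48 and not called (adjusted p = 0.381 by limma).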
